A study of Mus musculus with 3 samples.

Results

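The transcripts of 9 genes that mark the 2C-like state and lie outside its multi-copy families were followed in RNA immunoprecipitation sequencing (RIP-seq) of YTHDF2. The genes were Zfp352, Sp110, Tmem92, Snai3, Zfp750, Ubtfl1, Calcoco2, Abcb5 and Ddit4l, taken by symbol, and all 9 were found among the 49997 genes of the count table. The cells were E14 mouse embryonic stem cells (ESCs) treated with doxycycline (Dox) for 24 h, and the series holds 1 input library and 2 YTHDF2 immunoprecipitation (IP) libraries of such cells. In the cell system of the study Dox switches on a Dux transgene, and the Mervl promoter drives a tdTomato reporter. All 3 libraries came from Dox-treated cells, so the response of the genes to Dux was not measured, and no sort for 2C-like cells is stated. The libraries therefore pool converted and unconverted cells, in which fewer cells of a type and less RNA per cell cannot be told apart. The labels do not say whether the IP libraries came from separate cultures, so p-values measure the spread between these libraries, which may be technical.

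The 2C-like state is a rare and passing state of mouse ESCs in which genes of the 2-cell embryo are switched on. It is driven by DUX, a homeodomain protein that activates MERVL retroviral elements and neighbouring genes, among them the Zscan4 cluster. YTHDF2 is a cytoplasmic reader of N6-methyladenosine (m6A) that brings the CCR4-NOT deadenylase to methylated mRNA and so promotes its decay. The methyl mark is laid down mostly on the adenosine of the motif GGAC and its relatives, and most often near the stop codon and in long internal or last exons. A transcript held by YTHDF2 is expected to be more frequent in the IP than in the input, and the comparison of IP with input asks which transcripts those are.

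Some of the genes had near-identical stretches elsewhere when their exons were aligned to the mouse genome (GRCm38.p6, the assembly of mm10) with repeats left in. Stretches of at least 100 bases with at least 95% identity elsewhere covered 98.7% of the exonic bases of Zfp352, 80.6% of Sp110, 41.1% of Calcoco2 and 38.3% of Tmem92. Repeats masked in the genome sequence made up 39.0% of the exonic bases of Calcoco2, 21.75% of Sp110, 8.6% of Tmem92 and 6.24% of Zfp352. Shared repeats and copies of a gene were not told apart, so a stretch of this kind does not by itself make a gene multi-copy. The near-identical stretches covered 3.66% of Ubtfl1, and none was found for Snai3, Zfp750, Abcb5 or Ddit4l. In exons of other genes the highest identity was 96.4% for Zfp352 and 97.4% for Tmem92, against 100% for Sp110 and Calcoco2. Reads that map to several places were left out of the counts by the default of the counting tool, and how many reads of these genes were lost in that way was not tested.

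The sequence around the GGAC closest to the stop codon is shown for the 3 transcripts that passed the fold threshold, for the most abundant of the 9, and for Abcb5, whose 3′ untranslated region (3′ UTR) is the shortest. GGAC is in capitals and was searched on the transcript strand only, and each window lies in a single exon of the curated RefSeq transcript with the longest coding part.
Ddit4l: gaccagcctcaaGGACttcttctttagc
Snai3: ttctgtcatccaGGACagggcccagttc
Ubtfl1: aagcaaaacccaGGACattctcaacaga
Tmem92: ggatcaagcccaGGACcctggaatgact
Abcb5: aacaccctagtgGGACtaagaggcgtgc
The Ddit4l window (chr3:137626315-137626342, plus strand) lies in exon 3 within the coding part, with its adenosine at −127 bases, counted from the last base of the stop codon. The Snai3 window (chr8:122454777-122454804, minus strand) is in the 3′ UTR, at 63 bases. That of Ubtfl1 (chr9:18410442-18410469, plus strand) is also in the 3′ UTR, at 94 bases, and so is that of Tmem92 (chr11:94778598-94778625, minus strand), at 36 bases. The Abcb5 window (chr12:118868772-118868799, minus strand) is coding, at −315 bases. Enriched and depleted transcripts thus both carried the motif within 400 bases of the stop codon, as did 93.7% of all protein-coding genes tested.

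The 9 transcripts did not move together. Ddit4l and Snai3 were enriched in the YTHDF2 IP and Ubtfl1 was depleted, counting changes over 2-fold whose adjusted p-value stayed below 0.05 in edgeR's quasi-likelihood test. Across all 19601 genes tested, 15.2% were enriched and 14% were depleted by the same rule, and 2 and 1 of 9 stand near the numbers that such shares give of 9 genes. The calls of Ddit4l and Snai3 were lost at a fixed dispersion of 0.1. Those of Snai3 and Ubtfl1 were lost when a trend on GC content was removed. At any fold change 5 of the 9 were higher in IP, against 28.5% of all genes, and 3 were lower, against 30.1%. Passing at any fold depends on the counts of a gene, and all genes were not matched to the 9 by level. The median log2 fold change of the 9 was 0.41, which is the value of Zfp352 alone, with the next lower transcript at −0.29, and that of all genes tested was 0.0065, with quartiles at −0.72 and 0.81. Both IP libraries lay on the same side of the input for all 9 transcripts. Among all genes tested 44.2% had both IP libraries above the input and 45.3% had both below it.

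**Figure D1:**
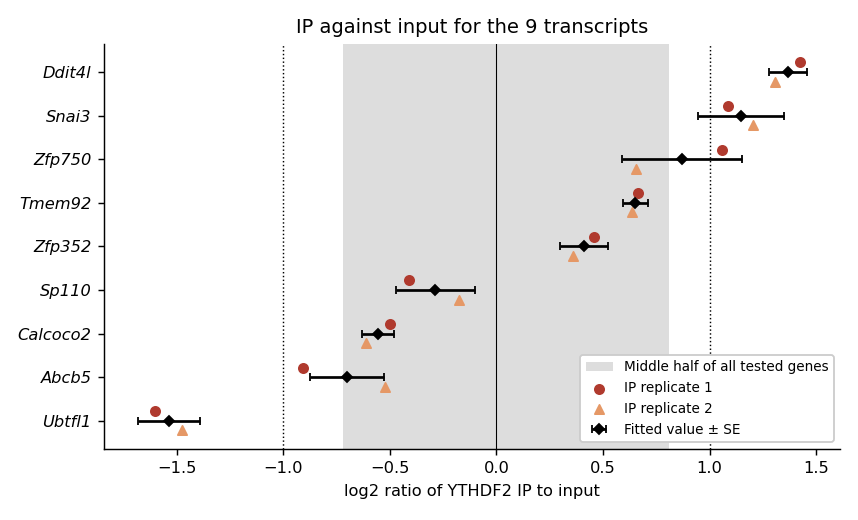
Log2 ratio of YTHDF2 IP to input (x axis) for each of the 9 transcripts, with IP replicate 1 as circles, IP replicate 2 as triangles and the fitted value ± SE as diamonds. The grey band spans the quartiles of all genes tested, −0.72 to 0.81, and the dotted lines mark a fold of 2. Ddit4l and Snai3 lie past the upper line in both libraries and Ubtfl1 past the lower one.

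Among the genes for transcription factors and other nuclear proteins, the values ran from enrichment to depletion. Snai3 (chromosome 8, 122454204 to 122460809, minus strand) encodes a zinc finger repressor of the Snail family. The input held 214 counts, and IP replicates 1 and 2 held 464 and 511. Both IP libraries were more than 2-fold above the input, with log2 ratios of 1.09 and 1.20. The fitted log2 fold change was 1.15 ± 0.20 (SE), a 2.21-fold enrichment, with an adjusted p-value of 7.66e-07. Snai3 had the highest exonic GC content of the 9, at 59.8%, which is the 95.4th percentile of the genes tested. After a smooth trend on GC content over all genes was removed its value was 0.53, with an adjusted p-value of 0.0227, and it no longer passed the fold.

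Zfp750 (chromosome 11, 121510976 to 121519342, minus strand) encodes a zinc finger factor known from epidermal differentiation and was the least abundant of the 9. From 122 counts in the input it went to 260 in the IP library of replicate 1 and 199 in that of replicate 2. Both IP libraries were above the input but they differed, with log2 ratios of 1.06 and 0.65, so that only IP replicate 1 was past a fold of 2. The fitted value was 0.87 ± 0.28 (SE), 1.83-fold higher, with an adjusted p-value of 0.00558. Under scaling to TPM it was 1.02 and passed the threshold, whereas the adjusted p-value was 0.0815 in DESeq2 and 0.0597 in edgeR with no filter on low counts, which leaves 4 of the 9 higher at any fold. An exon of Tbcd on the other strand overlaps 85 of its bases.

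Zfp352 (chromosome 4, 90218820 to 90225687, plus strand) encodes a zinc finger protein of the early embryo. With 1002 input counts against 1405 and 1331 in the IP libraries, both IP libraries were above the input. The fitted difference was 0.41 ± 0.11 (SE) on the log2 scale or 1.33-fold, with an adjusted p-value of 0.00112, and it was 0.74 with the GC trend removed. The near-identical pseudogene Zfp353-ps (chromosome 8, 42081329 to 42083312), which shares 1957 exonic bases with it at an identity of up to 96.1%, had 238, 354 and 392 counts and a log2 fold change of 0.61 ± 0.21 (SE). A further 279 exonic bases are alike in Enah (15529, 29118 and 28849 counts), which was at 0.86. The value of Zfp352 is therefore uncertain to the extent that reads of these genes were confused or left out.

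Sp110 (chromosome 1, 85570735 to 85610850, minus strand) encodes an interferon-inducible nuclear body protein of the Sp100 family. The counts were 409 (input), 314 (IP replicate 1) and 375 (IP replicate 2). Both IP libraries were below the input, at log2 ratios of −0.41 and −0.18. The fitted value of −0.29 ± 0.18 (SE) could not be told from 0 (adjusted p-value 0.178), and Sp110 was the only one of the 9 not past that threshold. Its exons had 3122 near-identical hits elsewhere, of which 254 were on chromosome 1. On that chromosome A530040E14Rik, with 860 exonic bases alike, had 33, 14 and 23 counts and a log2 fold change of −0.87 ± 0.66 (SE). C130026I21Rik, with 744 bases alike, had 82, 69 and 98 counts and was at −0.014 ± 0.38 (SE). Exons alike were found in 32 genes in all, and over the 8 with the most bases alike the log2 fold change ran from −1.10 in Gm6020, the depleted one, to 0.35 in Gm15753. An exon of Sp140 on the other strand overlaps 162 exonic bases of Sp110, where reads that touch both genes were not counted.

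Ubtfl1 (chromosome 9, 18404418 to 18411502, plus strand) encodes an HMG-box protein of the preimplantation embryo related to the ribosomal RNA gene factor UBTF. From 983 input counts it fell to 330 and 366 in IP replicates 1 and 2. Both IP libraries were well below the input, with log2 ratios of −1.60 and −1.47, and the gap between them was far smaller than their distance from the input. The fitted value was −1.54 ± 0.15 (SE), 2.90-fold lower in IP, with an adjusted p-value of 1.66e-15. Its exonic GC content of 38.1% was the lowest of the 9 and at the 1.71st percentile of the genes tested. With the GC trend removed the value was −0.86 and the adjusted p-value 2.67e-07, so the difference remained past the adjusted p-value but not past the fold.

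The transcripts for a stress protein and an autophagy receptor were split as well. Ddit4l (chromosome 3, 137623672 to 137628332, plus strand), also known as Redd2, encodes a stress-induced inhibitor of the mTORC1 kinase. The input held 1386 counts of it, against 3797 in the first IP library and 3556 in the other. Both libraries were more than 2-fold above the input, at log2 ratios of 1.42 and 1.31. The fitted value was 1.37 ± 0.089 (SE), a 2.58-fold enrichment, with an adjusted p-value of 2.12e-23. It was the most enriched of the 9 and lay at the 86.2nd percentile of log2 fold changes over all genes. Its GC content of 46.3% was below the median of 49.7% over the genes tested, and with the GC trend removed its value rose to 1.55.

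Calcoco2 (chromosome 11, 96098916 to 96124560, minus strand), also called Ndp52, encodes an autophagy receptor. Its 3981 input counts compared with 2874 and 2692 in IP replicates 1 and 2. The IP libraries were both lower, at log2 ratios of −0.50 and −0.61. The fitted value was −0.56 ± 0.076 (SE), 1.47-fold lower, with an adjusted p-value of 1.14e-09. Repeats masked in the genome sequence make up 39.0% of its exonic bases, at the 97.1st percentile, and an exon of Ttll6 on the other strand overlaps 104 bases. Gm11701 on chromosome 2, with 772 exonic bases alike, had 45, 19 and 27 counts.

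Of the 2 genes for membrane proteins, Tmem92 was higher and Abcb5 lower in IP. Tmem92 (chromosome 11, 94777217 to 94782703, minus strand) encodes a small transmembrane protein. It had 7749 input counts against 12549 and 12465 in IP, and the IP libraries were nearly equal. The log2 fold change was 0.65 ± 0.059 (SE), or 1.57-fold, with an adjusted p-value of 2.21e-16. All 6 near-identical hits of Tmem92 lay on chromosome 11, and 4 neighbouring genes with exons there had values on both sides of 0. Gm11544 (1613, 2969 and 3188 counts) was at 0.89 ± 0.089 (SE) and Gm11543 (14147, 19351 and 19768 counts) was at 0.43. Gm11546 (4476, 4410 and 4571 counts) was at −0.035 and AA623943 (6239, 5115 and 5196 counts) was at −0.32. None of the 4 passed a fold of 2.

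Abcb5 (chromosome 12, 118867486 to 118966434, minus strand) encodes an ATP-binding cassette transporter. Its 542 input counts stood against 295 in IP replicate 1 and 390 in IP replicate 2. Both IP libraries were below the input but lay apart, at log2 ratios of −0.91 and −0.52. The fitted value was −0.70 ± 0.17 (SE), 1.63-fold lower, with an adjusted p-value of 0.000321. Removing the GC trend brought it to −0.45 (adjusted p = 0.0192).

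Levels were compared between genes after division by exonic length, as TMM-scaled CPM (counts scaled by library size) per kilobase of exon. In the input Tmem92 was highest, at 100.2, followed by Calcoco2 at 49.2, and the remaining genes fell from 14.4 for Ddit4l to 1.06 for Zfp750. Tmem92 lay at the 95.8th percentile of input levels and Zfp750 at the 37th. The order changed in the IP libraries. Ddit4l, at place 3 in the input, reached 38.7 and 35.7 and stood above Calcoco2, at 34.8 and 32.1. Snai3 moved from place 7, at 3.54, to place 5, at 7.53 and 8.17. Ubtfl1 moved from place 5, at 10.1, to place 6, at 3.32 and 3.63. At the bottom the ranges of Sp110 (2.16 and 2.54), Abcb5 (1.91 and 2.49) and Zfp750 (2.22 and 1.68) overlapped, so these 3 were not ordered. Since the input had no replicate, neighbours in its order could not be set against a spread.

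**Figure D2:**
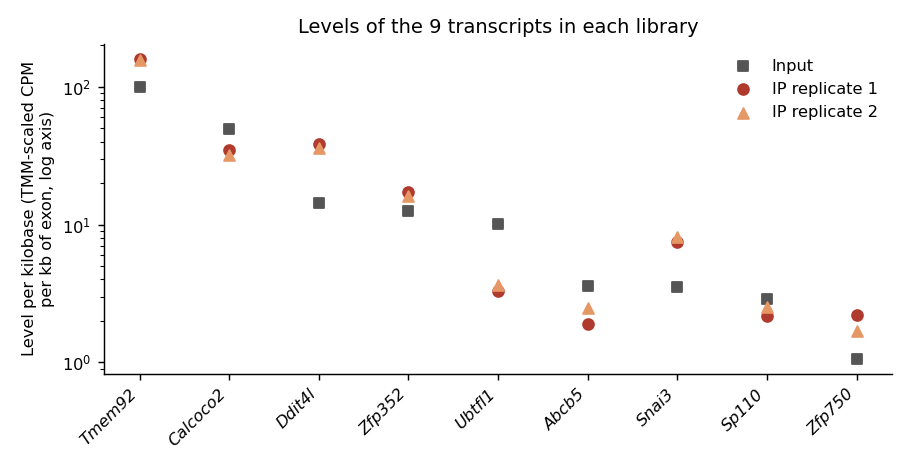
Level of each transcript in TMM-scaled CPM per kilobase of exon (log axis), ordered by the input, with the input as squares, IP replicate 1 as circles and IP replicate 2 as triangles. Tmem92 is the highest in every library, and the IP symbols lie above the square for Tmem92, Ddit4l, Zfp352, Snai3 and Zfp750 and below it for the other 4 genes.

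By IP to input ratio, the ranges of the 2 libraries separated most neighbours. Both ratios of a gene share the single input, so these ranges leave out its spread. By them Ddit4l was above Snai3 and Ubtfl1 was below all others. With their SEs, the fitted values of Ddit4l (1.37 ± 0.089) and Snai3 (1.15 ± 0.20) overlapped, as did those of Snai3 and Zfp750 (0.87 ± 0.28). Snai3 lay just above Zfp750, at 1.09 against 1.06 for the nearest libraries, and with the GC trend removed Zfp750 (0.80) and Zfp352 (0.74) were above Snai3 (0.53). The range of Zfp750 overlapped that of Tmem92, and that of Calcoco2 overlapped that of Abcb5.

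The transcripts differed in how their exons are built, and this was set beside the IP ratios after the values had been seen. The 5 genes higher in IP had few exons for their length, between 0.885 per kilobase in Zfp352 and 2.29 in Tmem92. Among the 4 lower in IP, Calcoco2 (3.06), Sp110 (4.46) and Abcb5 (6.77) had more. Ubtfl1, with 2 exons, had the lowest density of the 9, at 0.725 per kilobase, and the strongest depletion. The densities of the 4 lower in IP thus spanned those of the 5 higher in IP. All genes tested were also split into 4 bins of equal size by exon density, with a median log2 fold change of 0.32 in the lowest bin and −0.32 in the highest. Enriched genes made up 21.5% of the lowest bin and 6.12% of the highest, and depleted genes 13.6% and 17.3%. Zfp352, Zfp750, Ubtfl1 and Ddit4l belong to the lowest bin, and Sp110 and Abcb5 to the highest.

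GC content was related to the ratio across all genes too. The median log2 fold change rose from −0.53 in the bin of lowest GC, where 27.02% were depleted and 6.48% enriched, to 0.43 in the bin of highest GC, where 4.77% were depleted and 25.3% enriched. Snai3 was alone among the 9 in the highest bin, while Ubtfl1, Abcb5 and Zfp352 fell in the lowest. Over the 9 transcripts Spearman's rho with the log2 fold change was 0.47 for GC content and −0.17 for exon density, and over all genes it was 0.31 and −0.18. These are descriptions over genes that share the same 3 libraries and are not independent. The part of base composition and exon structure in the values of the 9 transcripts was not tested beyond the removal of the trends.

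**Figure D3:**
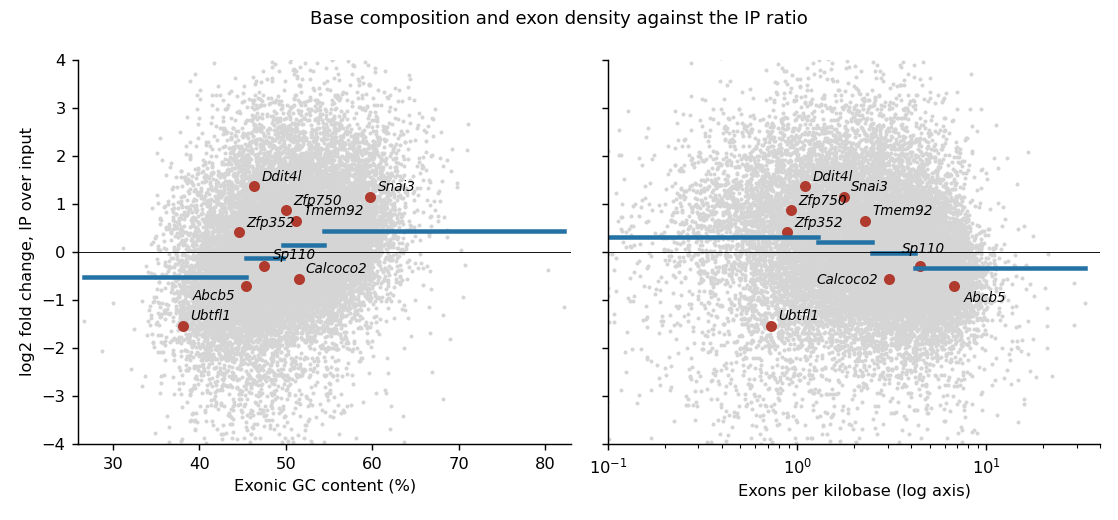
Log2 fold change of IP over input against exonic GC content (left, %) and exons per kilobase (right, log axis) for all genes tested (grey) and the 9 transcripts (red). Blue bars give the median in each of 4 bins of all genes, from −0.53 to 0.43 for GC and from 0.32 to −0.32 for exon density. The vertical axis stops at a log2 fold change of 4 in either direction and leaves out 430 genes, none of them among the 9.

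Among the 9 transcripts, those higher and those lower in IP overlapped in their number of GGAC motifs, whereas over all protein-coding genes tested the ratio rose with the motif. All 9 had at least 1 GGAC within 400 bases of the end of the stop codon, as did 93.7% of the 15180 protein-coding genes tested. Zfp750 had 8 there, at the 96.6th percentile, Tmem92 and Ubtfl1 had 4 each, and Zfp352 and Abcb5 had 1 each. In 4 bins of all these genes, with 0 to 2, 3, 4 to 5 and 6 to 17 such motifs, the median log2 fold change was −0.26, −0.062, 0.15 and 0.47. Zfp750 was in the highest bin, and Ddit4l and Zfp352 were in the lowest beside Sp110 and Abcb5. Over whole transcripts Tmem92 held 13 GGAC motifs, 11 of them in its 3′ UTR, whereas 15 of the 16 in Abcb5 were coding. Ddit4l, the most enriched, had 11 and Ubtfl1, the depleted one, had 10. Per kilobase of exon, Tmem92 had the most, 5.94, at the 84.8th percentile, and the lowest values were 3.47 in Sp110 and 3.51 in Snai3, against a median of 3.94 over all genes. The broader DRACH motif (A, G or T, then A or G, then AC, then A, C or T) was dense in Zfp352, at 33.6 per kilobase or the 99.6th percentile, and in Zfp750, Tmem92 and Sp110, all above the 93rd percentile. Of these 4, Sp110 was the one not above the input. Spearman's rho of GGAC density with the log2 fold change was 0.20 over the 9 transcripts and 0.24 over all genes, and that of DRACH density was 0.017 and −0.03. A match marks letters and not a methylated site, and m6A was not measured in these libraries.

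Length of the 3′ UTR differed widely between the transcripts. It was longest in Ddit4l, at 1876 bases, and in Tmem92, at 1430, both higher in IP, followed by Ubtfl1, at 1140, which was depleted. Abcb5, lower in IP, had 24 bases. Over all protein-coding genes tested the median was 933 bases, and the median log2 fold change lay between −0.091 and 0.11 in 4 bins by 3′ UTR length. In all 9 genes the stop codon was in the last exon of the transcript used.

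Other transcripts of the 2C-like state, mostly from the multi-copy families, were listed for comparison, and 36 of 41 listed symbols were in the table. Of the 33 that passed the filter, 3 were enriched and 2 were depleted, beside 15.2% and 14% of all genes. These counts moved with the setting, to 7 enriched and 1 depleted with the GC trend removed (2649 and 2431 of 19554 genes in all), so no order against all genes is read from them. At any fold 15 were higher, against 28.5% of all genes, and 9 were lower, against 30.1%, again with no match by level. The median log2 fold change was 0.26, and it was 0.0996 with no filter and 0.156 without IP replicate 1. Among the 27 with a mean of at least 10 CPM, the highest were Cpsf4l, a homologue of a polyadenylation factor subunit, and Zscan4c, a telomere and genome stability factor of the 2-cell embryo. Cpsf4l (491, 1778 and 1643 counts in the input and IP replicates 1 and 2) was at 1.76 ± 0.13 (SE) on the log2 scale. Zscan4c (19319, 43891 and 43848 counts) was at 1.14. The lowest were its paralogs Zscan4b (5509, 2128 and 2262 counts) at −1.37 and Zscan4e (13835, 5122 and 5120 counts) at −1.47. Gm4027, also enriched, at 1.01, was named after its value was seen. By these counts both groups of 2C transcripts thus held enriched and depleted members, and Ubtfl1 and Zscan4e, the lowest of the 27, differed by less than the SE of Ubtfl1. Reads that map to several places were left out for these paralogs too, and near-identical stretches were searched for in the 9 transcripts only. Zscan4e was counted over 1 exon of 4314 bases, and Zscan4b and Zscan4c over 4 exons each. The part of this in their values was not tested.

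**Figure D4:**
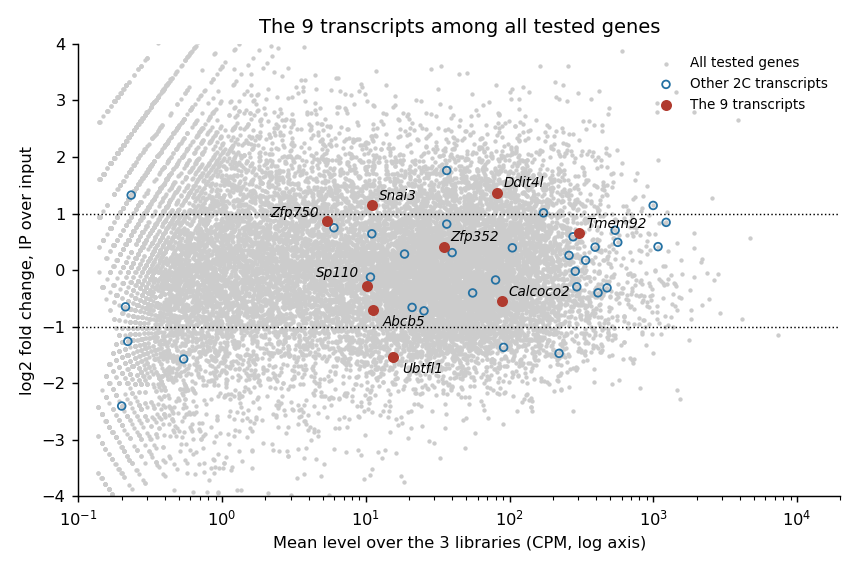
Log2 fold change of IP over input against mean level over the 3 libraries (CPM, log axis) for all genes tested (grey), the 33 other 2C transcripts (open circles) and the 9 transcripts (red), with dotted lines at a fold of 2. The vertical axis stops at a log2 fold change of 4 in either direction. Ddit4l and Snai3 lie above the upper line and Ubtfl1 below the lower line, inside the cloud of all genes at their level.

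The 3 libraries had total counts of 35259827 to 36986994, and 3 counts corresponded to at most 0.0851 CPM, far below the level of each of the 9 transcripts. The labelled cell type was borne out by its markers, since the 10 ESC genes on the list ranged from 260.9 to 1806 CPM in the input. The 6 markers of the 2C-like state summed to 1694 CPM in the input and to 2804 and 2789 in IP, mostly from Zscan4c (522.3, 1245 and 1222) and Zscan4d (839.6, 1192 and 1200). The depleted Zscan4b and Zscan4e are not among them. Of the 7 fibroblast (feeder cell) markers 5 were under 1 CPM in the input and Col3a1 and Dcn were at 0 in every library, while Thy1 was at 26.9 CPM, and the list summed to 29.2 CPM in the input and 15.97 and 17.1 in IP. The trophectoderm list summed to 26.8, 57.6 and 55.6 CPM, mostly from Eomes, with Elf5 at 0 in the input, the primitive endoderm list to 8.98, 15.4 and 9.95, and the 3 neural or mesoderm markers to 8.52, 8.74 and 7.66. The part of other cells in the values of the 9 transcripts was not tested.

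The input was a single library, so its own spread is not in the SEs. When every gene was given a dispersion of 0.1 instead of the estimate from the IP pair, Ubtfl1 alone among the 9 kept an adjusted p-value under 0.05, at 0.0348. The others then ranged from 0.098 for Ddit4l to 0.774 for Sp110. Scaling moved the 9 transcripts with all others, since the median of all genes was 0.10 under library totals and 0.16 under TPM. TPM scaling gave 3578 enriched and 2156 depleted genes in all, compared with 2973 and 2743 under TMM. No sign changed for any of the 9 transcripts in 13 alternatives. All of these used the same input library, and several change the test and hardly the fold, so the spread of the input was not tested.

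**Figure D5:**
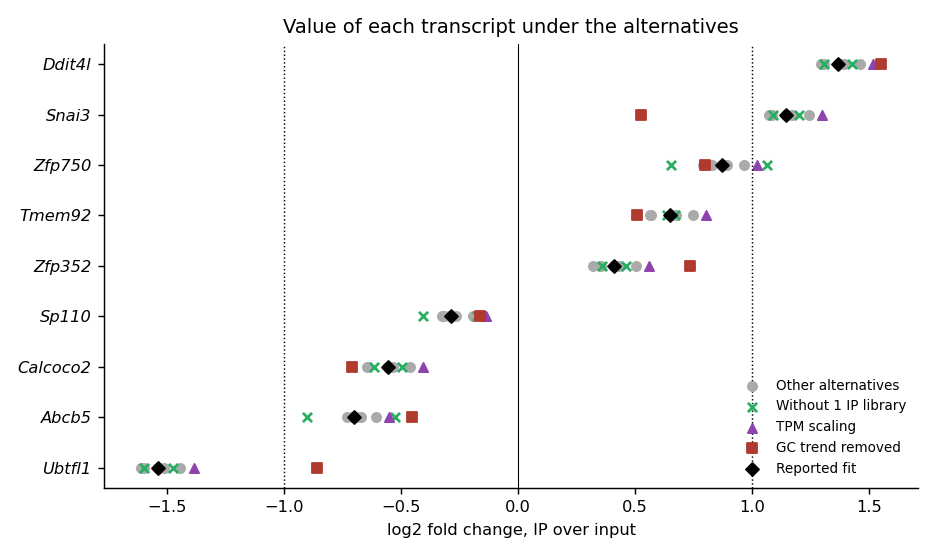
Log2 fold change of each of the 9 transcripts in the reported fit (black diamonds) and under 13 alternatives, with the GC trend removed as squares, TPM scaling as triangles, a single IP library left out as crosses and the others in grey. Dotted lines mark a fold of 2. Snai3 moves from 1.15 to 0.53 and Ubtfl1 from −1.54 to −0.86 when the GC trend is removed, and all symbols of a gene stay on the same side of 0.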

How the data were processed

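RIP-seq libraries were grouped by their titles into 1 input and 2 YTHDF2 IP libraries. Per the methods of the study, anti-YTHDF2 was added to a cleared lysate and RNA was recovered on beads, whereas the labels describe an IP from Trizol-extracted RNA. No control-antibody IP is analysed here. The authors trimmed reads with fastp 0.19.4 per the labels, aligned them to mm10 with HISAT2 2.2.1, and deposited raw counts per gene. Per the file headers these come from featureCounts 2.0.3 over RefSeq exons. The authors also used DESeq2 1.40.2. Strand was not used, and each mate of a pair was counted, so that 61.4% to 64.7% of counts from 1 to 100 were even numbers and noise exceeds what the counts imply. Reads that map to several places or lie over more than 1 gene were left out by the default of that tool. The table held 0 columns of other samples and no unnamed row.

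The counts were fitted with edgeR 4.0.16 (R 4.3.3). The filter filterByExpr kept 19601 genes, all 9 transcripts among them, and TMM factors were 0.957 (input) and 1.02 (both IP libraries). The quasi-likelihood F test compared IP with input, with robust dispersion and Benjamini-Hochberg adjustment over all genes tested, with 1 residual degree of freedom from the IP libraries. The common dispersion was 0.00538. A call needed a fold over 2 and an adjusted p-value under 0.05. For the ratio of each IP library to the input 0.5 was added to every count. Exon features came from the table and the GRCm38.p6 sequence, with masked repeats from its lower-case bases. All 9 transcripts had the same start and end in RefSeq, and coordinates are 1-based on mm10. Near-identical stretches were found with BLAST+ 2.17.0. The 9 transcripts, the other 2C transcripts and the marker lists were chosen with earlier results of these data known. By rule, the text names all 9, the 2 highest and 2 lowest other 2C transcripts among those averaging 10 CPM or more, and genes that overlap or nearly copy one of the 9, with the copies of Sp110 and Calcoco2 given in part. A further gene taken by the rule is not reported here and is left out of counts and medians. Marker genes were named after their values were seen. Alternatives covered scaling, the filter, the dispersion, halved counts, trends on GC, length and longest exon, DESeq2 1.42.0 and leaving out an IP library.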

Additional observations from a re-analysis of the deposited data

How the results depend on the processing

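No paired analysis was possible because there is only 1 input library, which no replicate number ties to an IP library. The direction of all 9 transcripts was kept in each of 13 alternatives. Those that change only the dispersion, the method or the filter could hardly move it, and all share the 1 input library. The side of the threshold was kept except where Ddit4l (adjusted p-value 0.098) and Snai3 (0.178) lost their calls at the fixed dispersion, Snai3 (0.53) and Ubtfl1 (−0.86) lost theirs with the GC trend removed, and Zfp750 (1.02) passed under TPM. At any fold, Zfp750 lost its adjusted p-value in DESeq2 (0.0815) and with no filter (0.0597). Of the 9, 0 were then enriched at the fixed dispersion, 1 was enriched and 0 were depleted with the GC trend removed, and 4 were enriched and 2 depleted at a fold of 1.5. Leaving out an IP library, which leaves no test, gave 2 to 3 past the fold upward and 1 downward, since Zfp750 is at 1.06 without IP replicate 2. The median of the 9 was 0.51 under library totals, 0.48 without mitochondrial genes in the totals, 0.56 under TPM, 0.51 with the GC trend removed and 0.32 with the length trend removed, and 0.36 to 0.46 with an IP library left out. Ordered by CPM without division by length, 7 of the 9 kept their place in the input. For the other 2C transcripts, all alternatives were chosen after seeing the data, as were the trend on the longest exon and the earlier method of edgeR for the 9. Of these others, 1 was enriched at the fixed dispersion, 7 were enriched and 1 depleted with the GC trend removed, and 8 and 4 at a fold of 1.5. Past the fold there were 4 upward without either library, and downward 6 without IP replicate 1 and 4 without IP replicate 2. Their median was 0.0996 with no filter, 0.355 under totals, 0.411 under TPM and 0.402 with the GC trend removed, and 0.156 to 0.273 with an IP library left out. Over all genes the fixed dispersion gave 1577 enriched and 1531 depleted, the GC trend removed gave 2649 and 2431, and a fold of 1.5 gave 4342 and 4392. Causes were not tested. Depth limits Zfp750 and Snai3 most, with 122 and 214 counts in the input.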
